A study of Mus musculus with 4 samples.

Results

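The genes described here encode the receptors and transporters of glutamate, chosen by symbol from the protein-coding genes of a GRCm38 (mm10) annotation. They are the Gria, Grik, Grin, Grid and Grm receptor genes, the Slc1a transporters and Slc17a6 to Slc17a8 (interacting proteins were left out). The set holds 36 of 21887 protein-coding genes, 35 of them on autosomes and 1, Gria3, on X. The set was proposed with results of these data known, among them the peaks of Grik2 and Slc1a6, so its values are a description and carry no test.

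The assay was ATAC-seq, which marks open chromatin by transposase insertion, on pachytene spermatocytes taken from mouse testes. Treated cells received the RNA polymerase I inhibitor BMH-21 (2.5 µM, 12 h) and control cells the DMSO vehicle (mock). Each group had 2 libraries of about 10000 cells, and the sources used here give no strain, genotype or age. The 2 libraries of a group are called biological replicates by the submitters, but nothing says that they came from separate animals, so their spread may be technical.

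Glutamate is the main excitatory transmitter of the brain. AMPA, kainate and NMDA receptors are ion channels built of 4 subunits, the delta receptors are related proteins that organise synapses, and the metabotropic receptors signal through G proteins. The Slc1a proteins carry glutamate or neutral amino acids into cells, and the Slc17a proteins load glutamate into synaptic vesicles. Most of these genes are known from neurons and glia, and pachytene spermatocytes are not a tissue in which they are usually studied.

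Each library had its own peak list, and a peak's fold is the authors' ratio of signal at its summit to background around it in that library. Folds are not normalised between libraries, so they are given side by side, and only the presence of a peak and, at starts, its width are compared between groups. Both depend on the threshold and depth of each library. A site is called mock-only when both mock libraries and neither BMH-21 library had a peak there, and BMH-21-only in the reverse case. The BMH-21 lists held 51234 and 55459 peaks and the mock lists 109230 and 117905, with read totals not analysed here. A missing peak fell below the threshold of the peak caller in that library. Whether fewer nuclei had the site open or each nucleus had it less open cannot be told apart. With 2 against 2 libraries no exact permutation test can go below p = 0.33, and none was run.

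Of the 36 genes, 24 have at least 1 annotated transcription start in the RefSeq promoter table, which gives 250 bases before to 50 bases after the start. The sequences before 6 of these starts are shown as 3 pairs from the same family, each with 1 start that was mock-only and 1 that had a peak in all 4 libraries. They were chosen after their peaks were seen. They are from RefSeq (GRCm38.p6), 5′ to 3′ on the strand of the gene, and end at the base before the start, with CG dinucleotides in capitals.
The mock-only starts were those of Gria4 (minus strand of chr9:4796235-4796484), Grik2 (minus strand of chr10:49788755-49789004) and Slc1a6 (plus strand of chr10:78780246-78780495).
Gria4: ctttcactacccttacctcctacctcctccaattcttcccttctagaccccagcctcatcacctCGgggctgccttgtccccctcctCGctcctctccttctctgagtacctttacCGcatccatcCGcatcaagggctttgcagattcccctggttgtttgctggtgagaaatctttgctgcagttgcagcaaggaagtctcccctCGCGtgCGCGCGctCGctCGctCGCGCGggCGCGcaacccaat
Grik2: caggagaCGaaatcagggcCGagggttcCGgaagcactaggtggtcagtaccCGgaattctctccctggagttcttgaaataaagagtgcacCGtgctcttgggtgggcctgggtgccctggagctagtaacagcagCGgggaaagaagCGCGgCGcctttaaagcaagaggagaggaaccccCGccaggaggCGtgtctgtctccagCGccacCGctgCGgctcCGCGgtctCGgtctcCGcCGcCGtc
Slc1a6: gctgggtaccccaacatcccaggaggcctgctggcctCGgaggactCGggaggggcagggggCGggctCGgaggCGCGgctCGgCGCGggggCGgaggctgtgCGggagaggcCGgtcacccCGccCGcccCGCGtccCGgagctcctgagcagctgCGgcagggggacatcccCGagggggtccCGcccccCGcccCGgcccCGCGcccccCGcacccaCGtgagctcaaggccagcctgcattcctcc
The starts with a peak in all 4 libraries were those of Gria2 (minus strand of chr3:80802836-80803085), Grik4 (minus strand of chr9:42944372-42944621) and Slc1a1 (plus strand of chr19:28834885-28835134).
Gria2: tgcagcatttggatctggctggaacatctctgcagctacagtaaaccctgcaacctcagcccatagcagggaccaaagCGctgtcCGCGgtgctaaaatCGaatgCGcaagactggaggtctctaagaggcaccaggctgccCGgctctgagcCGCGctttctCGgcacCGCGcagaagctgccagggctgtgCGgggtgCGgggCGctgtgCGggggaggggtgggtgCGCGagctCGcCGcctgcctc
Grik4: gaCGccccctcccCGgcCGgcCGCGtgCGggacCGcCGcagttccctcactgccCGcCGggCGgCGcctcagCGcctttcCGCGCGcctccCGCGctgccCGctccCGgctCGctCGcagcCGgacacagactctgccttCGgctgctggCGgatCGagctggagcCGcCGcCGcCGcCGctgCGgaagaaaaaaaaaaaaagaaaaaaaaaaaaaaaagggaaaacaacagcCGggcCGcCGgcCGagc
Slc1a1: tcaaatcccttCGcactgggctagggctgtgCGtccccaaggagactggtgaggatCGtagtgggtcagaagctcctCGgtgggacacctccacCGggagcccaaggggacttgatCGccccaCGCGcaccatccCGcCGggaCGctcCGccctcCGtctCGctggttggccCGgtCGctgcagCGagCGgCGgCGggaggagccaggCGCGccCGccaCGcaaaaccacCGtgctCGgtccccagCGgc
The 250 bases hold 16 CG dinucleotides before Gria4, 20 before Grik2 and 26 before Slc1a6, against 19 before Gria2, 36 before Grik4 and 27 before Slc1a1. In the AMPA and kainate pairs the mock-only start thus had fewer, whereas the transporter pair differed by 1.

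Accessible gene ends were fewer after BMH-21. A peak lay within 1 kb of either end of the gene in 21 and 22 of the 36 genes in the BMH-21 libraries, against 31 and 32 in the mock libraries. Across all protein-coding genes the numbers were 13349 and 13450 in BMH-21 and 15335 and 15479 in mock, of 21887. Of 31 genes of the set with such a peak in both mock libraries, 9 (29%) were mock-only. Over all protein-coding genes 11.5% were mock-only (1735 of 15040).
They included Gria4, Grin2a, Grin3a, Grm5, Grm7, Slc1a6, Slc1a7 and Slc17a8. Of the kainate receptor genes 0 of 4 were mock-only. A further 20 genes (55.6%) had an end peak in all 4 libraries, against 57.9% of all protein-coding genes. Counting each end on its own, 14 of the 36 genes (38.9%) had at least 1 mock-only end, against 17.1% of all protein-coding genes. The 5 that kept a peak at the other end were Grik3, Grin1, Grin2c, Grin2d and Grm2. Both shares include genes without a mock peak, so they also depend on how many ends could be lost. An end peak in both mock libraries was present in 86.1% of the set, against 15040 of 21887 protein-coding genes. Grin2b and Grik1 had one in both mock libraries and 1 BMH-21 library, Slc17a6 in the second mock library only, and Slc1a3 in the second BMH-21 library only. Gria1, Gria2 and Grik2 had none in any library. No gene was BMH-21-only, of 4 without an end peak in either mock library, against 2.86% over all protein-coding genes.

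**Figure D1:**
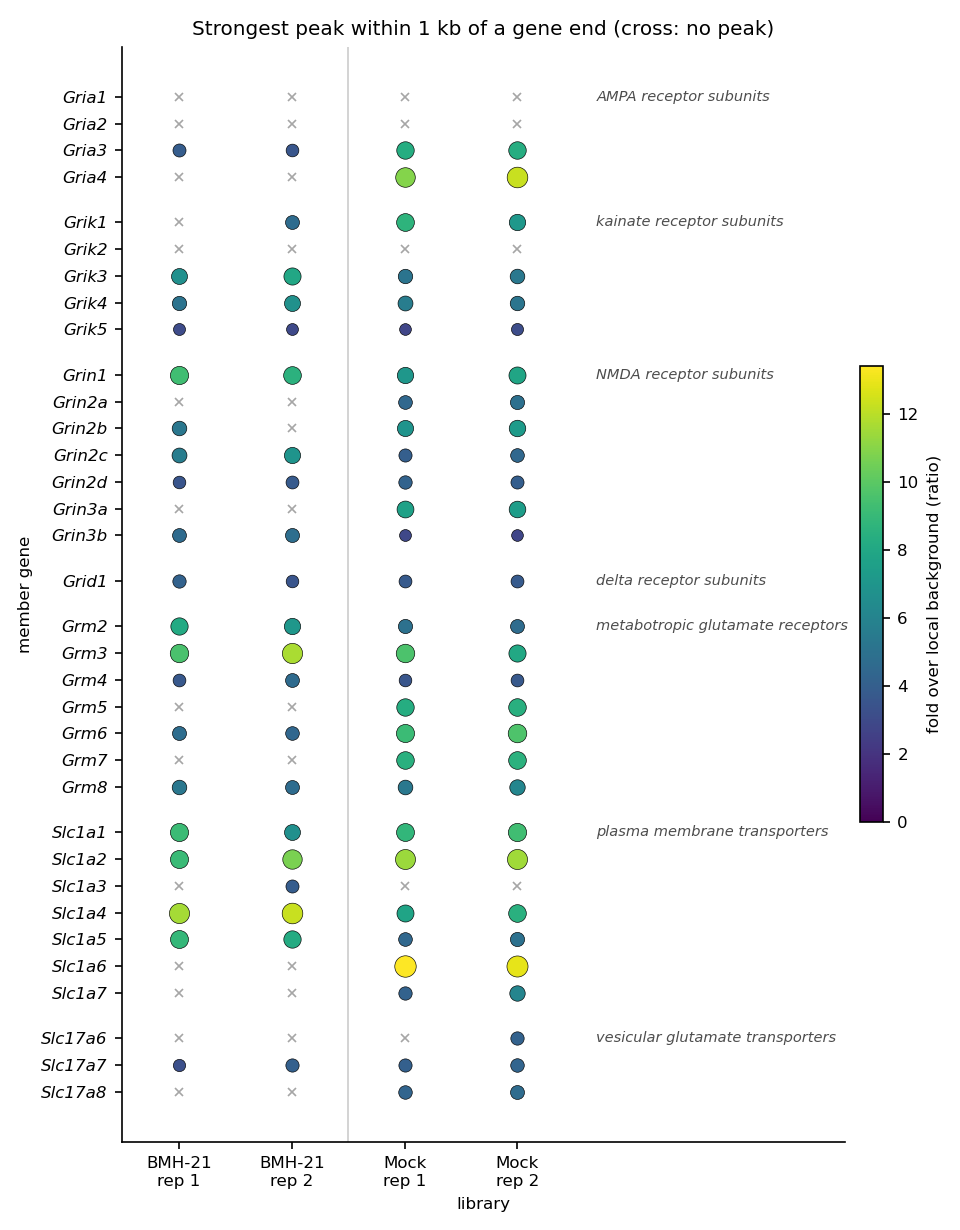
Each row is 1 of 34 genes of the set, grouped by subfamily, and each column 1 library, with the 2 BMH-21 libraries left of the 2 mock libraries. Dot size and colour give the fold of the strongest peak within 1 kb of a gene end (ratio to the local background of the library), and a cross marks no peak. The 8 mock-only genes drawn show 2 crosses on the left and 2 dots on the right.

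Among the AMPA receptor genes, Gria4, which encodes a channel subunit, had no end peak in either BMH-21 library, against peaks of fold 10.9 and 12.3 over its start in mock. These peaks were 1054 and 1055 bp wide and ranked at percentiles 97.9 and 98.9 of their lists. The nearest BMH-21 peaks lay 10391 and 10345 bp from a gene end. Gria2, whose subunit sets the calcium permeability of the channel, behaved differently at its start. Its start lies inside the longest gene model, so the peak there missed the gene-end window. The start had peaks of fold 9.35 and 9.97 in BMH-21 and of 7.67 and 9.19 in mock. Gria1 had neither a gene-end peak in any library nor a region inside it held by both libraries of a group.

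In the kainate receptor family the strongest peak of the whole set lay at Grik2, which encodes a channel-forming subunit. BMH-21 libraries had no peak there. Their peaks nearest to a gene end lay 17897 and 17691 bp from it, whichever end was closer. The mock libraries had peaks of fold 15.4 each (chr10:49788395-49788989 and chr10:49788389-49789113). These peaks cover the RefSeq start of Grik2 at 49788754 on the minus strand, printed above. They lie 1172 and 1048 bp from the end of the longest gene model, just outside the window of 1 kb, so they counted as lying in the gene body. Gria2 also lay just outside it, with peaks at 1079 to 1162 bp in the 4 libraries. Among genes inside the window, Slc1a5 had its nearest peaks at 0 bp in both BMH-21 libraries and at 481 and 0 bp in mock. Grik4 and Grik3, subunits of the same family, had start peaks in all 4 libraries, Grik4 with fold 5.08 and 6.70 in BMH-21 and 5.63 and 5.22 in mock, and Grik3 with 6.69 and 7.99 in BMH-21 and 5.17 and 5.08 in mock. Grik5, which forms channels only together with other kainate subunits, was in all 4 lists at its far end alone. At its start it had no BMH-21 peak, against mock folds of 3.29 and 3.18, although the second BMH-21 library had a weak peak just upstream of the start window (fold 1.95) under the mock peaks.

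Among the NMDA receptor genes, Grin1, the subunit present in every NMDA receptor, had a strong start peak in all 4 libraries, with fold 9.28 and 8.58 in BMH-21 and 7.11 and 7.88 in mock. Its far end, shared within 1 kb with Lrrc26, was mock-only (fold 3.2 and 2.95). Of the glutamate-binding subunits, Grin2a had no end peak in BMH-21, against fold 4.49 and 4.92 in mock. Grin2b had a peak of fold 5.31 in the first BMH-21 library, 984 bp from the gene end, against 6.91 and 6.29 for the mock peaks overlapping it. In the second BMH-21 library the nearest peak lay 1037 bp from a gene end, just outside the window. Grin2c and Grin2d had peaks in all 4 libraries at their far ends. The higher-coordinate end of each, on the side of the start, was mock-only, and that of Grin2c is shared within 1 kb with Fdxr. The RefSeq start of Grin2d lies further inside the gene, at 45866681, within a region that had a peak in all 4 libraries. That region had fold 4.65 and 5.47 in BMH-21 and 2.68 and 3.14 in mock. Of its BMH-21 peaks, only that of the first library met the start window. Grin3a, a subunit that lowers calcium entry in mouse, had no end peak in BMH-21, against fold 7.66 and 7.41 in mock. Its relative Grin3b had end peaks in all 4 libraries, with strongest folds of 4.64 and 4.81 in BMH-21 and 2.93 and 2.81 in mock.

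Of the delta receptor genes, which bind partner proteins across the synapse, Grid1 had a peak over its lower-coordinate end in all 4 libraries, of fold 4.15 and 3.53 in BMH-21 and 3.74 and 3.77 in mock.

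Of the metabotropic receptor genes, 2 of 8 were mock-only at their ends. Grm5, which couples to phospholipase C, had no end peak in BMH-21, against fold 8.3 and 8.47 in mock. Grm7, a presynaptic receptor that lowers cyclic AMP, had none in BMH-21, against fold 8.48 and 8.55 over its start in mock. Grm7 had no region inside the gene in any library, and its nearest BMH-21 peaks were 626536 and 296138 bp from a gene end. Grm2 had a start peak in all 4 libraries, with fold 8.15 and 7.07 in BMH-21 and 3.59 and 3.49 in mock, while its far end was mock-only. Grm4 and Grm8 also had an end peak in all 4.

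Grm3 and Grm6 show what a gene-end count can hide. Both had an end peak in all 4 libraries but were mock-only in the RefSeq start window. At Grm3 the BMH-21 peaks lay 432 and 355 bp upstream of the start (fold 9.53 and 11.7), whereas the mock peaks were 1590 and 1673 bp wide and covered it (fold 9.59 and 8.02). At Grm6, the receptor of retinal ON bipolar cells, the BMH-21 peaks began 764 and 745 bp inside the gene (fold 4.76 and 4.42). The mock peaks (fold 9.13 and 9.65) began at 50850703 and 50850734, past the start at 50850685. The start window ends at 50850734, so the second mock peak met only its last base.

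The plasma membrane transporters included the strongest mock-only gene end of the set. Slc1a6, a glutamate transporter of cerebellar Purkinje cells, had no end peak in either BMH-21 library, against fold 13.4 and 12.9 over its start in mock (percentiles 99.6 and 99.2 of the lists). The nearest BMH-21 peaks were 7659 and 7638 bp away. Slc1a7, a transporter of the retina, had none in BMH-21, against fold 4.17 and 6.12 in mock. Slc1a4 and Slc1a5, which carry neutral amino acids such as serine, alanine and glutamine, had end peaks in all 4 libraries. For Slc1a4 the folds were 11.6 and 12.3 in BMH-21 and 7.85 and 8.53 in mock. For Slc1a5 the strongest peaks lay at different sites, of fold 8.91 and 8.2 in BMH-21 and 4.46 and 4.94 in mock. At the site of these mock peaks BMH-21 had fold 4.11 and 4.05. At the site of the strongest BMH-21 peaks only the second mock library had a peak (fold 2.53). Slc1a1, the transporter found in most neurons and in kidney, had start peaks of fold 9.16 and 6.65 in BMH-21 and 8.82 and 9.3 in mock. Slc1a2, the main transporter of astrocytes, had peaks at the start side of its gene model, of fold 9.06 and 10.7 in BMH-21 and 11.4 and 11.5 in mock. The second glial transporter, Slc1a3, had its only end peak in the second BMH-21 library (fold 3.91).

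Of the vesicular transporters, Slc17a8, which inner hair cells of the ear depend on, had no end peak in BMH-21, against weak start peaks of fold 4.33 and 4.7 in mock. Slc17a7, the main vesicular transporter of cortical neurons, had a start peak in all 4 libraries, of fold 3.26 and 4.07 in BMH-21 and 4.04 and 4.34 in mock. The end peak of Slc17a6 in the second mock library was of fold 4.14.

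Peaks were also counted at the RefSeq starts, a choice made after seeing the data. A peak overlapped the start window in both mock libraries in 19 of the 24 genes with such a window. Of these 19, 9 (47.4%) were mock-only, against 9.96% of all protein-coding genes (1105 of 11097), and 8 had a start peak in all 4 libraries. The 9 were Gria4, Grik2, Grik5, Grin2c, Grm3, Grm6, Grm7, Slc1a6 and Slc17a8. The 8 were Gria2, Grik3, Grik4, Grin1, Grm2, Slc1a1, Slc1a4 and Slc17a7. Grin2d and Grm8 had a start peak in both mock libraries and 1 BMH-21 library, Slc1a7 and Slc17a6 in the second mock library only, and Slc1a2, Slc1a3 and Grin3b in none. None was BMH-21-only. With each peak limited to 100 bp on either side of its summit, only Grik2, Slc1a6 and Slc17a8 stayed mock-only. They were 3 of 10 genes with a start peak in both mock libraries, against 15% of all protein-coding genes. At gene ends the same limit left 9 of 30 genes mock-only, the same share as at starts, and the difference between starts and ends was not tested. Grik2 and Slc1a6 were among the mock-only starts with and without this limit, and Slc1a6 among the mock-only ends. Their peaks were known when the set was proposed, so these shares rest in part on that choice. The other 12 genes have no start window and were not counted here.

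**Figure D2:**
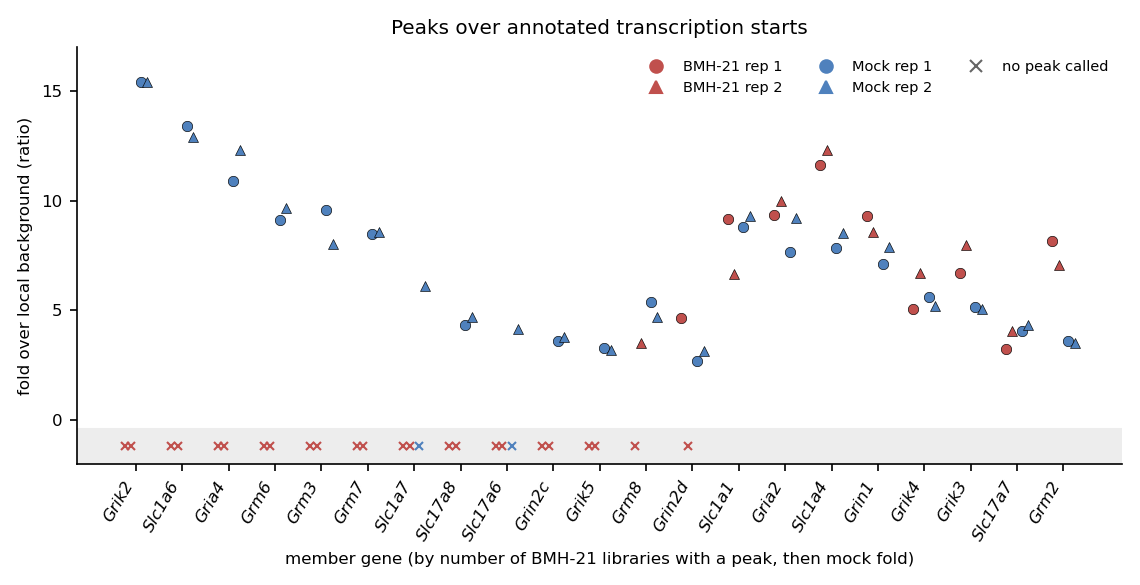
The vertical axis gives the fold of the peak overlapping the start window of each gene (ratio to local background). BMH-21 libraries are in red and mock libraries in blue, and crosses in the grey band mark libraries with no peak. The 9 mock-only starts have 2 red crosses, with mock folds between 3.18 and 15.4. The 8 genes at the right have peaks in all 4 libraries.

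Where a start had a peak in all 4 libraries, the peak was narrower after BMH-21. In 8 of 8 genes both BMH-21 widths were below both mock widths, which was the case for 45.5% of all protein-coding start windows with a peak in all 4 libraries (5023 of 11044). The median ratio of BMH-21 to mock width was 0.602 for the 8 genes and 0.963 over all 11044 windows. The difference was wide for Grik4, with 984 and 854 bp in BMH-21 and 1867 and 1834 bp in mock, and for Grm2, with 327 and 424 bp in BMH-21 and 685 and 838 bp in mock. It was small for Grin1, with 942 and 901 bp in BMH-21 and 967 and 951 bp in mock.

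The CG content of the start windows differed between the classes, in the set and over all genes. The 8 windows of the set with a peak in all 4 libraries held 13 to 50 CG dinucleotides per 300 bases, with a median of 29. The 10 mock-only windows, of which 2 overlap at Grm7, held 4 to 32, with a median of 13, so the classes overlapped. Over all protein-coding windows the medians were 23 for windows in all 4 libraries and 9 for mock-only windows. Among windows with a peak in both mock libraries, those of the set were mock-only in 2 of 2 cases with fewer than 10 CG dinucleotides, 5 of 7 with 10 to 19, 2 of 5 with 20 to 29 and 1 of 6 with 30 or more. Over all protein-coding genes the shares in these classes were 45.3%, 11.7%, 4.25% and 2.24%. The GC box GGGCGG, searched on both strands, was present in 7 of 8 windows of the set with a peak in all 4 libraries and in 6 of 10 mock-only ones. Over all protein-coding windows it was present in 71.6% of those in all 4 libraries, 47% of the mock-only ones and 46.2% of all 21263.

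Inside the genes, more than 1 kb from their ends, most accessible regions of mock cells had no BMH-21 peak. Peaks were merged across libraries into regions, of which 267 lay inside 33 of the 36 genes. The BMH-21 libraries held 59 and 62 of them, against 169 and 177 in the mock libraries. Of 121 regions held by both mock libraries, 94 (77.7%) were mock-only. Of 41 held by both BMH-21 libraries, 13 were BMH-21-only, and 20 regions were in all 4 libraries. The rest were 93 regions of a single mock library, 29 of a single BMH-21 library and 18 in other combinations. When all 4 lists were cut to equal length by strength, 33 of 52 regions were mock-only and 25 of 40 BMH-21-only.
On the autosomes, counting only regions away from any other protein-coding gene end, 93 of 112 (83%) were mock-only, against 75.6% of all such gene-body regions. Of the 93, 18 lay in Grid1 and 9 in Gria4, where every region held by both mock libraries was mock-only, so the share rests in part on these genes. BMH-21-only regions were 12 of 32 (37.5%), against 25.8% over all genes. With equal list lengths 31 of 45 (68.9%) were mock-only, against 59.3% over all genes, and 20 of 31 (64.5%) BMH-21-only, against 44% over all genes. In each of the 4 pairs of a BMH-21 with a mock library, 86.1 to 87% of the autosomal regions of the mock library were absent from the BMH-21 library, against 83 to 84.6% over all genes.

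Part of the set consists of very long genes, and these were set beside long genes in general. In the 15 autosomal genes of the set of 200 kb or more, 54 of 60 regions were mock-only, against 77.6% in all 945 autosomal genes of that length. Grid1 and Gria4 supplied 18 and 9 of the 54. At gene ends, 5 of 14 genes of the set of 200 kb or more were mock-only, against 18.9% of all long genes, 1 of 5 from 50 to 200 kb, against 9.29%, and 3 of 12 under 50 kb, against 11.7%. The strength of the mock peak also bore on the share. When autosomal gene-body regions were divided into 3 equal classes by mock fold, in the strongest class 34 of 45 regions of the set were mock-only (75.6%), against 59.7% over all genes. In the middle class these were 26 of 29 (89.7%) and 80.4%, and in the weakest 33 of 38 (86.8%) and 86.8%.

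**Figure D3:**
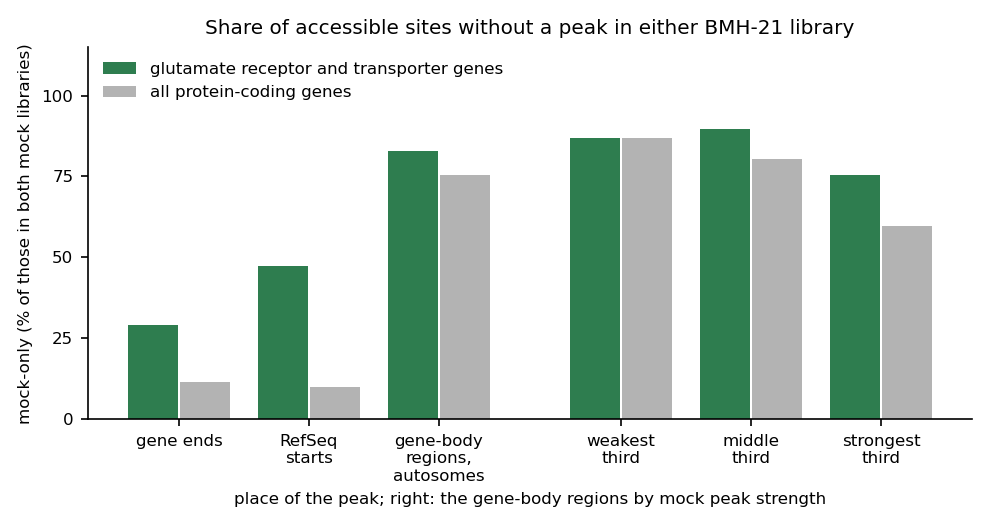
Bars give the percentage of sites without a peak in either BMH-21 library, of those with a peak in both mock libraries, for the glutamate receptor and transporter genes (green) and all protein-coding genes (grey). The 3 pairs at the left are gene ends (29% and 11.5%), RefSeq starts (47.4% and 9.96%) and autosomal gene-body regions (83% and 75.6%), and the 3 at the right divide the gene-body regions by the strength of their mock peaks. The green bar is the higher one in every pair except the weakest class, where both are at 86.8%.

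Among the mock-only regions inside the genes, the strongest after the Grik2 start lay in Grin2a (chr16:9894549-9895323), with no BMH-21 peak and fold 13 and 10.9 in mock, 100760 bp from the higher-coordinate end of the gene. Grid1 carried the most mock-only regions, 18 of the 18 held by both mock libraries, spread from 2749 to 760495 bp from its lower-coordinate end. Its strongest ones had mock folds of 9.21 and 9.97 (chr14:35557797-35558129) and of 6.94 and 9.69 (chr14:35132601-35133056). Regions inside Grid1 numbered 2 and 3 in BMH-21 and 24 and 28 in mock. Further strong ones were single regions in Grm5 (7.58 and 6.96 in mock), Grik3 (6.09 and 8.08), Grm3 (6.06 and 7.99) and Grin3a (7.4 and 6.59), none with a BMH-21 peak.
Gria4, Grm4 and Grik5 also held few regions in BMH-21, beside 75.6% mock-only over all autosomal gene-body regions. Gria4 had 9 of 9 regions mock-only, with 1 and 0 regions in BMH-21 and 13 and 10 in mock. Grm4 had 10 of 11 mock-only, with 2 and 3 regions in BMH-21 and 13 and 16 in mock. These 10 ranked at mean mock percentiles of 4.51 to 35.9, and over all genes 86.8% of the weakest class were mock-only. Grik5, a gene of 65846 bp, had 9 of 11 mock-only, with 0 and 2 regions in BMH-21 and 12 and 14 in mock.

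**Figure D4:**
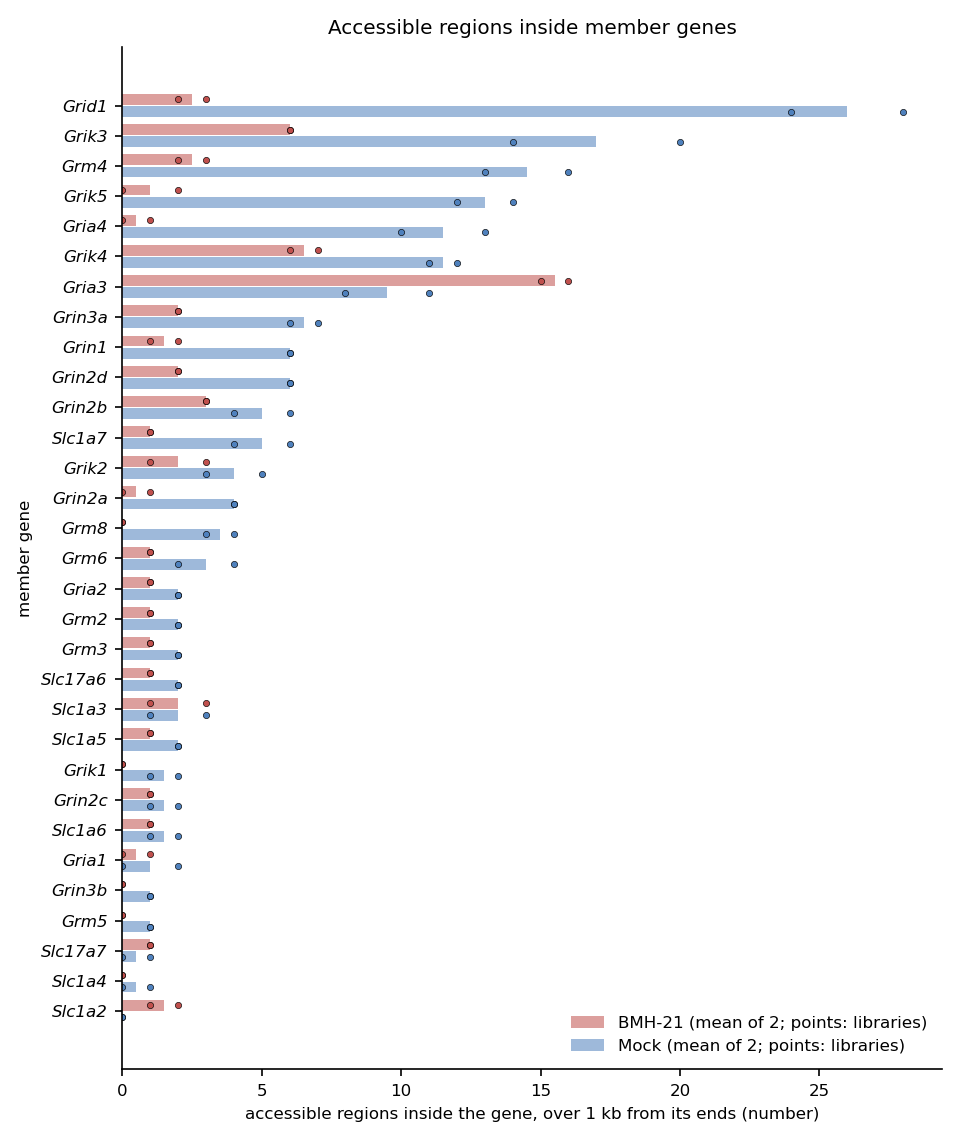
Horizontal bars give the mean number of accessible regions inside each of 31 genes, over 1 kb from its ends, for BMH-21 (red, upper bar) and mock (blue, lower bar), and points give the 2 libraries of each group. The BMH-21 bar is far shorter in Grid1 (2 and 3 regions, against 24 and 28 in mock), while in Gria3 it is longer (16 and 15, against 8 and 11).

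Of the 13 regions that were BMH-21-only, 5 lay in the kainate receptor genes Grik2, Grik3 and Grik4. The kainate receptor genes held 11 of the 41 regions found in both BMH-21 libraries. The strongest lay in Grik4 (chr9:42833484-42834075, fold 11 and 12.4 in BMH-21) and Grik3 (chr4:125598098-125599015, fold 10 and 13 in BMH-21), neither with a mock peak. Grik4 and Grik3 each held a second one, of fold 7.29 and 7.2 (chr9:42927481-42928023) and of 5.86 and 7.82 (chr4:125502930-125503213) in BMH-21. The third by fold was in Slc1a2 (chr2:102745222-102745559, fold 7.51 and 8.02 in BMH-21), a gene with no mock region inside it. Grik3 and Grik4 thus held both classes. Of their regions held by both mock libraries, 7 of 9 and 4 of 6 were mock-only, against 75.6% of all autosomal gene-body regions.
Of the regions in all 4 libraries, the one with the highest mean mock fold outside Gria3 was in Grik4 (chr9:42520545-42521201), with fold 3.48 and 3.71 in BMH-21 and 7.22 and 9.97 in mock. In Grin3a a region near another gene end (chr4:49681235-49682238) had fold 5.42 and 6.44 in BMH-21 and 8.7 and 8.45 in mock. The Gria2 start described above was among them as well.

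Gria3, the AMPA receptor gene on X, a chromosome that is transcriptionally silenced in pachytene spermatocytes, differed in direction from the other genes as a whole. It held 16 and 15 regions in BMH-21, against 8 and 11 in mock. Of its regions, 13 were in a single BMH-21 library and in no mock library. Others were in a single BMH-21 library beside a mock peak, so much of the BMH-21 count was not shared between the replicates. Regions held by both libraries numbered 7 in BMH-21 and 7 in mock. Slc1a2 also had more in BMH-21, with 1 and 2 regions, against 0 and 0 in mock, and Slc17a7 had 1 and 1, against 0 and 1. The 32 autosomal genes with a region, these included, held 43 and 47 in BMH-21 and 161 and 166 in mock. Of 7 Gria3 regions held by both mock libraries 1 was mock-only, against 25.8% of all gene-body regions on X, and of 7 held by both BMH-21 libraries 1 was BMH-21-only, against 12.7%. All X genes together held 3559 and 3677 such regions in BMH-21 and 4418 and 4724 in mock. The Gria3 region with the highest mock folds, in all 4 libraries (chrX:41501634-41502153), had fold 3.29 and 4.06 in BMH-21 and 11 and 10.4 in mock. A second one in all 4 (chrX:41605051-41606176) had fold 4.29 and 4.24 in BMH-21 and 7.47 and 7.9 in mock. The lower-coordinate end of Gria3 had peaks in all 4 libraries as well. At the site of its strongest mock peaks the folds were 3.89 and 3.05 in BMH-21 and 8.32 and 8.37 in mock.

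Partner genes of the same synapses were counted at their ends, with the 11.5% of all protein-coding genes as the background. Of 15 auxiliary subunit genes of AMPA and kainate receptors with an end peak in both mock libraries, 3 were mock-only. These were Neto1, a kainate receptor partner (no BMH-21 peak, fold 6.53 and 6.06 in mock), and the AMPA receptor partners Shisa9 (6.44 and 5.69 in mock) and Shisa6 (5.22 and 5.43 in mock). Of 22 scaffold genes 2 were mock-only, among them Dlg4, the postsynaptic scaffold (3.74 and 3.75 in mock). Of 13 genes for glutamate synthesis, breakdown and precursor transport 2 were mock-only, Srr, which makes the NMDA receptor co-agonist D-serine (fold 10.4 and 9.13 in mock), and Gad1, which turns glutamate into GABA (3.76 and 4.29 in mock). Of 8 genes for delta receptor ligands and D-serine metabolism 2 were mock-only, Srr again and Cbln2, a secreted ligand (6.3 and 7.7 in mock). No gene of these 4 lists was BMH-21-only. Receptor subunit genes of other transmitters (GABA, glycine and acetylcholine) had 6 mock-only of 29 (20.7%). They included the GABA receptor subunit genes Gabrg3 (fold 11.9 and 12), Gabrp (7.04 and 7.53) and Gabrb2 (5.23 and 5.23), and none was BMH-21-only.

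Marker genes of the cell types that a testis preparation can hold, and of neurons, were counted in the same way. Of 11 pachytene spermatocyte markers 10 had an end peak in each of the 4 libraries, among them Sycp1 and Sycp3, and Ccna1 had none. Markers with an end peak numbered 1 in each BMH-21 library and 6 to 7 in mock for 10 leukocyte genes, 3 in each BMH-21 library and 6 in each mock library for 10 Leydig and peritubular genes, and 6 in each BMH-21 library and 10 in each mock library for 12 Sertoli genes. They numbered 4 to 6 in BMH-21 and 8 in each mock library for 9 spermatogonial genes, and 7 to 8 in BMH-21 and 10 in each mock library for 10 neuronal genes. Mock-only counts were taken over markers with an end peak in both mock libraries. In the order above they were 5 of 6, 3 of 6, 4 of 10, 2 of 8 and 2 of 10. For the spermatocyte markers the count was 0 of 10, and over all protein-coding genes 11.5% were mock-only. A mock-only gene listed for both Sertoli cells and spermatogonia was counted in each. The Sertoli gene Rhox5 was BMH-21-only (fold 5.68 and 6.45 in BMH-21, no peak in mock), and no other marker was. Over all protein-coding genes without an end peak in either mock library, 2.86% were BMH-21-only. No end peak in any library was found for the leukocyte genes Ptprc, Adgre1 and Lyz2, the Leydig and peritubular genes Cyp17a1, Hsd3b1, Acta2 and Pdgfra, the Sertoli gene Gata4 or the spermatogonial gene Stra8. The part of other cell types in the losses at glutamate genes was not tested.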

How the data were processed

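The deposited files are 1 narrowPeak list per ATAC-seq library. Per the submitters' processing notes, fastp, Bowtie2, bedtools, deepTools and MACS2 2.1.0 were used, without role or order. Peak calling parameters, read filters and any shift of read ends are not given in the sources used here. The series text and the sample protocol name different library kits, one of them for RNA. In the deposited lists the fold is a ratio to the local background within 1 library, the −log10 p and −log10 q are those of the peak (smallest −log10 q 2.01 to 2.09), and the score is 10 times the −log10 q. The lists hold no read counts, so the depth behind a peak is unknown.

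The notes name mm39 and mm10. The lists were taken as mm10. An end peak was found at 61 to 70.7% of genes of the RefSeq GRCm38.p6 table, and at 14.8 to 29.4% when gene positions were moved by 50000 bp. Coordinates count from 1. Peaks sharing at least 1 bp were joined into regions. Region strength averages the percentiles of the fold in both mock lists. The members and gene lists were chosen with earlier results of these data known. Some genes counted here are not reported by name. Values are given for members mock-only at an end, at least 1 member per subfamily with a peak in all 4 libraries, the 10 strongest mock-only regions inside the genes, the 5 shared ones of the highest mean mock fold and the 5 strongest BMH-21-only ones, and up to 4 mock-only genes per list of partner genes and other receptors. Alternatives were a −log10 q of at least 5, equal list lengths, summit windows of 100 bp, a 50% overlap, gene-end windows of 500 bp or 2.5 kb, a peak in at least 1 library of a group (looser definition) and leaving out each library. The start windows were added after seeing the data. The merging was checked on simulated lists. Python 3.11.15 with pandas 2.3.3 was used.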

Additional observations from a re-analysis of the deposited data

How the results depend on the processing

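The number of genes mock-only at an end stayed between 7 and 12 under all 11 alternatives, against 9 in the main setting. Without any 1 library it was 9 to 10. By the definition the 9 genes could not leave the class there, so those settings say nothing about their stability. With equal list lengths Slc1a7 and Slc17a8 were no longer mock-only. With 2.5 kb windows Slc1a7 left and Grik2 entered, with summit windows Grin2a left and Grin2b entered, and with 500 bp windows Grin2b, Grin2d and Grm6 entered. With equal list lengths 7 of 28 genes of the set were mock-only, against 7.03% of all protein-coding genes. At the RefSeq starts the count was 3 with summit windows and otherwise 9 to 11. Without any 1 library it was 9 to 11, where again a gene could enter the class but not leave it.

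The counts inside the genes depended on list length. With equal list lengths 33 regions were mock-only and 25 BMH-21-only, the mock-only share was 63.5% (on autosomes 68.9%, against 59.3% over all genes), 1 gene was BMH-21-only at an end, and the ratio of peaks of the set in BMH-21 to mock was 0.863, against 0.405 in the main setting. The looser definition gave 187 mock-only and 42 BMH-21-only regions and 1 BMH-21-only gene. Leaving out 1 library gave 96 to 146 mock-only regions (146 without the first mock library), a share of 79.3 to 81.8%, 16 to 29 BMH-21-only regions (29 without the first and 28 without the second BMH-21 library), 0 to 1 BMH-21-only genes, the 1 being Slc1a3 without the first BMH-21 library, and ratios of 0.393 to 0.417. The fewer peaks that enter with equal lengths, and the single library that a class then rests on, are built into these alternatives. The 50% overlap does not apply to gene ends. No paired analysis was possible because nothing in the labels ties libraries of the same number together and no test was fitted to the counts. Each BMH-21 library was set beside each mock library instead. The number of reads per library is unknown, so it cannot be said how deep a missing peak was searched.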
